A study of Saccharomyces cerevisiae with 48 samples.

Results

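The 200 probe sets described here are those of well-measured budding yeast genes whose signal varied least over a respiratory cycle experiment. They were selected on the standard deviation (SD) of their log2 signal over all 48 arrays. A probe set needed a named gene and a mean log2 signal of at least 9 after quantile normalization, which gives every array the same distribution of values. Genes with symbols of ribosomal proteins, RPL, RPS and MRP, were left out. Of 10928 probe sets on the array 5498 had a budding yeast gene, 4128 of these reached the mean of 9, and 197 were left out as ribosomal. The 200 members were thus 5.09% of 3931 candidates, and they stand for 199 genes because SSB1 has a pair of probe sets among them.

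The RNA came from 1 continuous culture of Saccharomyces cerevisiae strain IFO0233, sampled every 4 min. The phenelzine group holds 37 samples, taken from 14.6 to 17.0 h after inoculation, with the first one set to 0 min here and the last one at 144 min. The control group holds the 11 samples before the addition, from 13.8 to 14.5 h. Phenelzine is a monoamine oxidase inhibitor, and the series asked whether a perturbation doubles the period of the cycle. Both groups come from the same vessel, so time points stand in for replicates, p-values measure only the spread between them, and treatment cannot be told apart from time in culture. A run of array numbers skips 91, with 32 arrays before the gap and 16 after it, and all of those after it are phenelzine. The probe sets for fission yeast on the same array, which this culture cannot supply, had a 90th percentile of 3.01 on the log2 scale, and the dimmest member averaged 9.14.

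Yeast in such a culture alternates between phases of high and low oxygen uptake, and most of its transcripts rise and fall with that alternation. Sulfur and methionine genes and ribosome assembly genes are known for wide swings. Genes at the other end of the range matter because stable transcripts are used as internal standards, ACT1, TDH3, PGK1 and TEF2 among them.

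The members' SD ran from 0.0294 for TEF2, translation elongation factor 1 alpha, to 0.0954 for HSF1, the heat shock transcription factor, with a median of 0.0798. These values are what the selection used and are given as a description. The candidates had a median SD of 0.204. The last members inside the limit were ADE16 (0.0947), CMD1 (0.0948), GSP1 (0.0948), DOA1 (0.0949), SCT1 (0.0950) and HSF1. The first candidates outside it were SWP1 (0.0955), YCK1 (0.0956), YIL001W (0.0956), SOL3 (0.0956) and BUD6 (0.0957), so nothing in the values separates the 2 sides. On the linear scale a member's highest array was 1.11 to 1.46 times its lowest, with a median of 1.26, against a median of 1.79 for candidates.

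The far end of the same scale shows what flat is set against. MET3, ATP sulfurylase, had an SD of 2.12, and its highest array was 69.2 times its lowest. The other 9 candidates of largest SD were MET1, STR3, MHT1, MET14, MET16, MUP1, SUL2, MET2 and ADY2, with SDs of 2.10 down to 1.54. All but ADY2, an acetate transporter, act in sulfate assimilation or in the synthesis, recycling or uptake of sulfur amino acids. A pair of sulfur metabolism genes stood among the members all the same. MET6, which makes methionine from homocysteine, had an SD of 0.0480, and HOM2, an early enzyme of the homoserine pathway, had 0.0917, in a list of 29 candidates whose median SD was 1.05.

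**Figure D1:**
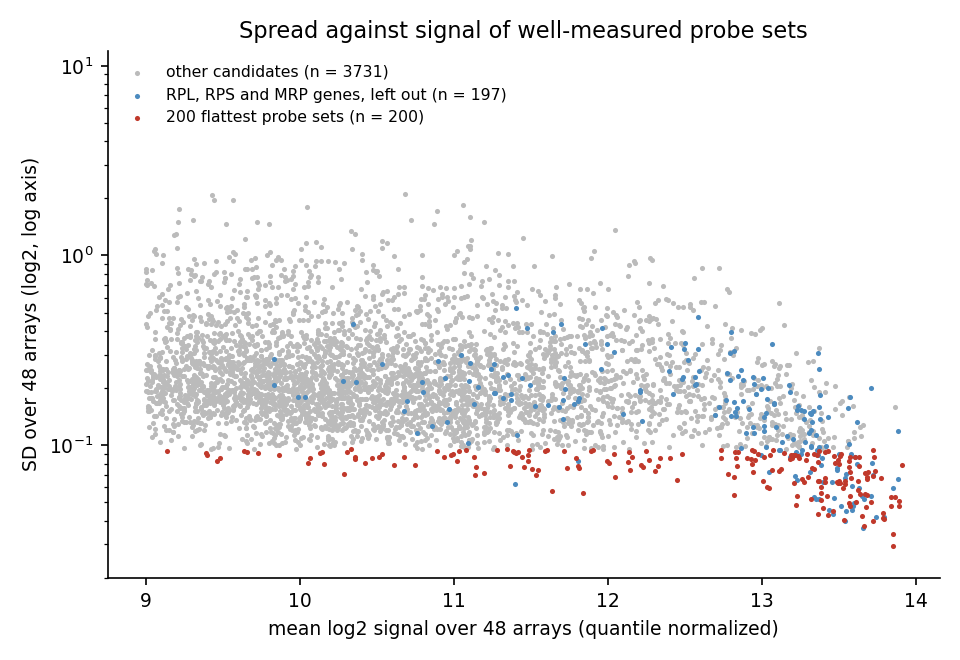
Mean log2 signal of each probe set over the 48 arrays (x axis) against its SD over the same arrays (y axis, log scale), quantile normalized. Red points are the 200 flattest probe sets, blue points the 197 ribosomal ones left out and grey points the other candidates; the lower edge of the cloud drops steeply above a mean of 13, where 51.0% of them lie.

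Signal strength was the first thing the members shared. Their mean log2 signal had a median of 13.02, against 10.57 for candidates. In the brightest band, from 13 to 14, 44.2% of 231 candidates were members, which is 51.0% of the set. The share was 8.15% between 12 and 13 (34 of 417), 4.01% between 11 and 12 (34 of 847), 1.71% between 10 and 11 (21 of 1227) and 0.744% between 9 and 10 (9 of 1209). The candidates' median SD was 0.104 in the brightest band and 0.194 to 0.228 in the 4 others. A probe set's brightness depends on its sequence as well as on the transcript, so these are statements about signals and not about amounts of mRNA.

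The flat behaviour of the bright members depended on the scaling. As deposited, with no further normalization, the members with a mean of 13 or over had a median SD of 0.247. It was 0.313 for all candidates and 0.240 for the 231 candidates of that brightness. When each array was centred on its median instead, their median SD was 0.470, against 0.262 for all candidates and 0.436 for those of that brightness. None of these bright members lay below the median of all candidates, and 1 of the 231 did, so this held for bright probe sets at large. Scaling on 9 spiked hybridisation controls gave 0.312, against 0.301 for all candidates and 0.299 for the bright ones. In these 3 scalings the bright members were thus no flatter by the median than candidates of like brightness. The 64 members with a mean under 12 stayed flatter by the median than all candidates. Their median SD was 0.0869 against 0.204 under quantile normalization and 0.167 against 0.262 after centring. It was 0.230 against 0.313 as deposited, and 0.211 against 0.301 on the spiked controls. Their place among the flattest 200 did depend on the scaling. Of the 64, 22 kept it after centring, 17 on the spiked controls and 5 as deposited. Of the bright members none kept it after centring, 1 on the spiked controls and 13 as deposited. All 200 members lie below the candidates' median SD under quantile normalization by the selection itself. The 3 other scalings use the same arrays as the selection, so counts below this median are a description and not independent support. In them all 64 lay below it each time, as did 35.2% of the 3283 candidates with a mean under 12. Between 12 and 13 it was 12 of 34 members, against 75 of 417 candidates. Sorted by function, these 76 were 14 of 16 transcription and chromatin members, 13 of 19 secretory ones, 12 of 19 among mitochondrial genes outside the respiratory chain, 5 of 6 in signalling and protein turnover, 2 of 19 in translation, 1 of 19 in the respiratory chain and ATP synthase, and none of the 13 in glycolysis, fermentation and the pentose phosphate pathway. The remaining 29 lay in other groups, 7 of 12 in the cytoskeleton and 6 of 15 in the cell wall among them. These groups differ in brightness, so the counts by function largely repeat the counts by signal. A mean under 12 was found for 13 of the 16 transcription and chromatin members and 11 of the 19 secretory ones. A mean of 13 or over was found for 12 of the 19 in translation and all 13 in glycolysis, fermentation and the pentose phosphate pathway. A part of function beyond brightness was not tested.

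**Figure D2:**
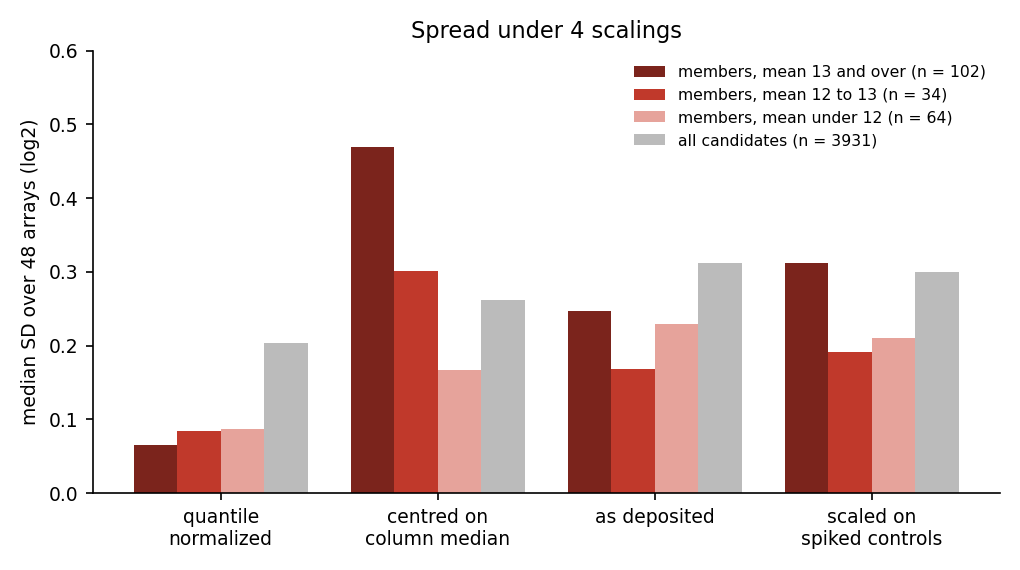
Median SD over 48 arrays (log2, y axis) of members in 3 bands of mean signal (red shades) and of all candidates (grey), under 4 scalings of the same arrays (x axis). Members with a mean of 13 or over are below the candidates under quantile normalization and as deposited, and above them after centring (0.470 against 0.262) and on the spiked controls.

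The array levels behind this were as follows. The bright members' mean as deposited was 13.47 ± 0.26 in phenelzine arrays (SD, n = 37) and 13.50 ± 0.18 in control arrays (SD, n = 11). It was lowest, at 12.98, in the 72 min sample and highest, at 14.10, in the 132 min sample. The spiked controls had their lowest mean, 9.95, in that same 132 min sample. After quantile normalization the bright members' mean lay between 13.43 and 13.51 in every array.

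Translation factors led the order. TEF2 read 13.78, 13.85 and 13.93 in phenelzine arrays (lowest, median and highest log2 signal), against 13.80, 13.85 and 13.88 in control arrays. EFT2, elongation factor 2, read 13.58, 13.66 and 13.73 in phenelzine arrays, against 13.63, 13.67 and 13.71 in control arrays. The groups overlap almost fully in both genes, and the highest array was 1.11 times the lowest in each. Near-identical copies of TEF2, EFT2, TIF2 (initiation factor eIF4A) and HHF1 (histone H4) exist in the genome. Their probe sets, and 1 of the 2 for SSB1, a ribosome-associated Hsp70, are of the type that matches several transcripts, so copies cannot be told apart. TMA19, a ribosome-associated protein (SD 0.0397), ASC1, a protein of the small ribosomal subunit (0.0404), and RPP0, the stalk base (0.0433), were also among the 10 flattest. The 19 translation members also held CDC33, the cap-binding protein, EFB1, the exchange factor of elongation factor 1, HYP2, which is eIF5A, and PAB1, the poly(A)-binding protein. Their SDs were 0.0852 to 0.0935. Of the list of translation factors 11 of 55 candidates (20.0%) were members, and of the 5 stalk proteins 3 were (RPP0, RPP2B and RPP2A). The flattest 200 probe sets held 6 translation factors with values as deposited, none after centring and 5 by SD relative to candidates of like signal.

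The ribosomal proteins left out by symbol held many flat signals too. Of 142 RPL and RPS probe sets 50 had an SD at or under that of the last member, with a median of 0.130 over all 142. RPL10 (0.0368), RPL4A (0.0399), RPS4B (0.0419), RPS8A (0.0421) and RPS29B (0.0436) were the flattest. Among MRP genes, of the mitochondrial ribosome, 2 of 55 probe sets were as flat, with a median SD of 0.186. Ribosome assembly genes held no member among 112 candidates, with a median SD of 0.616.

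Carbon metabolism held the next large block. PGK1, phosphoglycerate kinase, read 13.74, 13.80 and 13.89 in phenelzine arrays, against 13.71, 13.78 and 13.83 in control arrays (lowest, median, highest). The other members of the glycolysis list were TPI1, ENO2, CDC19 (pyruvate kinase), TDH3, FBA1 and GPM1, which makes 7 of 16 candidates (43.8%), with SDs from 0.0408 to 0.0670. ADH1, the main fermentative alcohol dehydrogenase (0.0647), PDC1, pyruvate decarboxylase (0.0865), and TKL1 and TAL1 of the pentose phosphate pathway (0.0646 and 0.0668) were members too. The isoenzymes ENO1 (0.144) and TDH1 (0.162) were not. CIT1, citrate synthase, had an SD of 0.0422, and ACO1, LPD1, PDA1, PDB1 and LAT1 brought the tricarboxylic acid cycle and pyruvate dehydrogenase list to 6 of 25 candidates. All 13 glycolysis, fermentation and pentose phosphate members and all 8 of the cycle and its entry had means of 13 or over, so all 21 fall in the band whose spread changed with the scaling.

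The respiratory chain and ATP synthase gave 17 of 39 candidates (43.6%), against 12 with values as deposited, none after centring and 1 by SD relative to candidates of like signal. ATP1, the alpha subunit of the ATP synthase, read 13.48, 13.57 and 13.66 in phenelzine arrays, against 13.50, 13.56 and 13.61 in control arrays. ATP2, ATP3, ATP4, ATP5, ATP15, ATP16 and ATP17 of the same enzyme were members, as were COR1, RIP1, QCR6, QCR7 and QCR9 of complex III, COX4, COX5A and COX12 of cytochrome oxidase, and NDE1, an external NADH dehydrogenase. Other mitochondrial members included the carriers PET9 (ATP and ADP), MIR1 (phosphate) and the pore POR1, the chaperonins HSP60 and HSP10, and the import proteins TIM54, TOM40 and TOM71. Of these import proteins TIM54 had an SD of 0.0705 under quantile normalization. After centring it had 0.0911, against 0.144 for TOM71 and 0.256 for TOM40. As deposited the order was reversed, with 0.268 for TIM54, 0.221 for TOM71 and 0.138 for TOM40. Proteins that handle mitochondrial nucleic acids or their expression were flat at moderate signal: MGM101 and RIM1 bind mitochondrial DNA, SUV3 is an RNA helicase, PET127 and RMD9 act on mitochondrial mRNA, AEP1 on the translation of an ATP synthase subunit, and RML2 is a ribosomal protein. Their SDs were 0.0762 to 0.0899, and RIM1 alone of these 7 was not below the candidates' median SD in all 4 scalings.

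**Figure D3:**
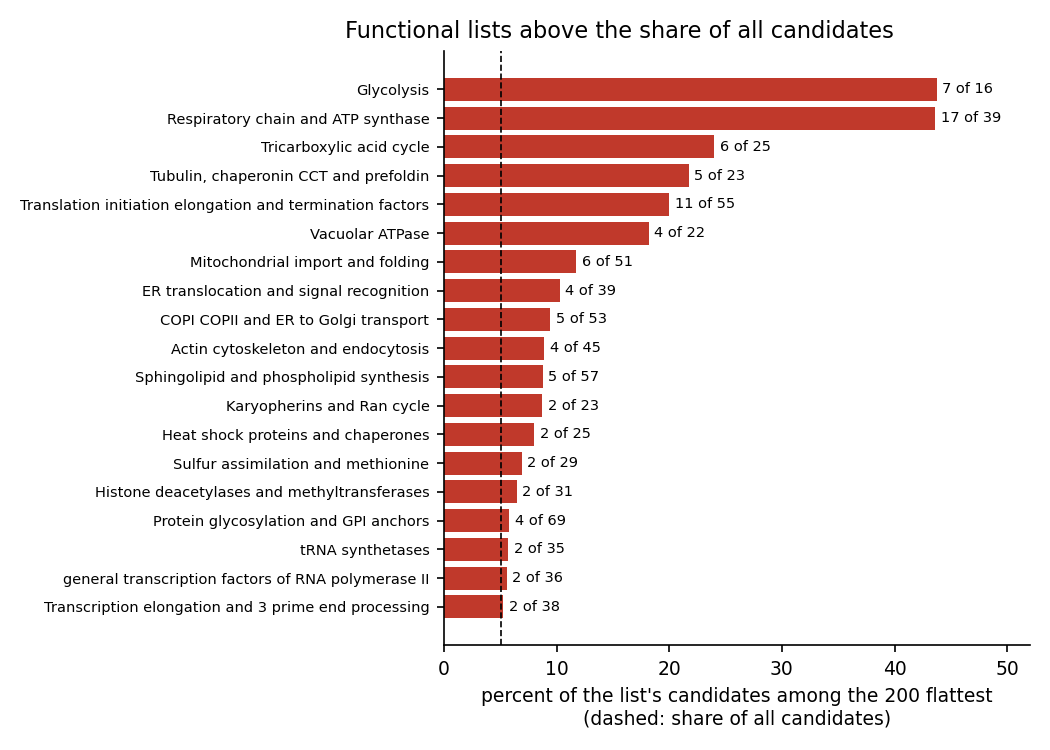
Percent of each functional list's candidates that were among the 200 flattest probe sets (x axis), for the 19 lists with 8 or more candidates whose share was above that of all candidates; labels give members of candidates. The dashed line is the share of all candidates, 5.09%; glycolysis (7 of 16) and the respiratory chain with ATP synthase (17 of 39) have the longest bars, and after centring on the column median neither list has any.

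Genes of galactose use were a further group, picked out after their values were seen. GAL1, galactokinase, read 13.79, 13.89 and 14.02 in phenelzine arrays, against 13.81, 13.87 and 13.90 in control arrays. GAL7 (SD 0.0552), GAL10 (0.0639) and the permease GAL2 (0.0578) were members as well. The inducer GAL3 (0.125), the repressor GAL80 (0.215) and PGM2, phosphoglucomutase (0.403), were not. These genes are repressed by glucose in laboratory strains, and the labels name glucose as the sugar of the growth phase that preceded sampling. GAL7, GAL10 and GAL1 lie next to each other on the chromosome, and other neighbours among the members were ACT1, YPT1 and TUB2, then FIT2 with FIT3, VTA1 with SWI6, ALO1 with TUB1, and GAL11 with GSH2. Of 2675 adjacent pairs of candidates 8 (0.299%) were pairs of members. This share of pairs is not comparable with the members' 5.09% share of single candidates. Whether the count of 8 exceeds random placement was not tested.

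Cell wall and surface proteins supplied 15 members. CCW12, a mannoprotein of the wall, was the second flattest of all, reading 13.79, 13.85 and 13.93 in phenelzine arrays, against 13.76, 13.85 and 13.87 in control arrays. FIT2 (0.0414) and FIT3, wall mannoproteins of iron uptake, TIP1 (0.0468), BGL2, a glucan transferase (0.0483), SCW4 (0.0531) and ECM33 (0.0561) were bright and flat. KRE1, KRE2 and KRE9, which act on glucan and mannan, KTR4, DCW1 and PCM1 were the 6 of this group below the candidates' median SD in all 4 scalings. VHT1, the biotin transporter (0.0429), stood beside BIO2 (0.0789) and BIO3 (0.0801) of biotin synthesis. IPP1, inorganic pyrophosphatase, had 0.0449.

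The secretory pathway had 19 members, none with a mean of 13 or over. WBP1 and STT3 are subunits of the oligosaccharyltransferase, the enzyme that adds N-linked sugar chains to new proteins in the endoplasmic reticulum. WBP1 read 11.74, 11.85 and 11.93 in phenelzine arrays, against 11.72, 11.83 and 11.97 in control arrays. STT3 read 11.50, 11.63 and 11.81 in phenelzine arrays, against 11.56, 11.61 and 11.69 in control arrays. Control arrays lay within the phenelzine range in STT3, and passed it at both ends in WBP1. Set against the running median SD of candidates of like signal, they were the 2 flattest of all candidates, at 0.277 and 0.283 of that median. Coat proteins COP1 and SEC26, the GTPases ARF1 and YPT1, SEC62 and SEC11 of protein entry into the endoplasmic reticulum, GET1 and SGT2 of tail-anchored protein insertion, and the ion pump SPF1 were further members. SWP1, another subunit of the same transferase, was the first candidate outside the limit. In all, 13 of the 19 were below the candidates' median SD in all 4 scalings, and 11 of the 19 had a mean under 12. The shares of secretory lists lay on both sides of the 5.09% of all candidates. Members were 5 of 53 in COPI and COPII transport (9.43%), 4 of 39 in translocation (10.3%) and 4 of 69 in glycosylation (5.80%). They were 2 of 44 in ESCRT and vacuolar sorting (4.55%), 1 of 44 in Golgi sorting (2.27%) and 0 of 16 in the exocyst.

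Transcription and chromatin had 16 members, 13 of them with a mean under 12. Of the 16, 14 were below the candidates' median SD in all 4 scalings. They were subunits of unlike complexes: GAL11 of Mediator, SPT7 of SAGA, TAF9 shared by SAGA and TFIID, TFA1 of TFIIE, SIN3 of a histone deacetylase, ARP8 of the INO80 remodeller, POB3 of FACT, CDC73 of the Paf1 complex and HIR1 of a histone chaperone. The transcription factors SWI6, HAP1 and HSF1 were in the same subset. HAP1 read 11.73, 11.87 and 12.07 in phenelzine arrays, against 11.81, 11.92 and 12.00 in control arrays. GCN4, the activator of amino acid synthesis, and HHF1 were the 2 of the 16 outside it. RNA polymerase subunits held no member among 29 candidates, with a median SD of 0.375. The shares of related lists were near the 5.09% of all candidates. Members were 2 of 36 general transcription factors (5.56%), 1 of 20 for Mediator (5.0%) and 1 of 20 SAGA and NuA4 subunits (5.0%). They were 1 of 45 chromatin remodellers (2.22%), 2 of 38 in elongation and 3 prime end processing (5.26%) and 2 of 31 histone deacetylases and methyltransferases (6.45%).

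The cytoskeleton group had 12 members. ACT1, actin, read 13.74, 13.84 and 13.93 in phenelzine arrays, against 13.76, 13.85 and 13.89 in control arrays. The tubulins TUB1, TUB2 and TUB3 and the chaperonin subunits CCT3 and CCT4, which fold actin and tubulin, made 5 of 23 candidates of their list. Calmodulin (CMD1), cofilin (COF1), CDC42, SLA2, BEM3 and ACF2 completed the 12. Signalling and protein turnover had the kinases TOR1 (0.0945), of nutrient sensing, and PBS2 (0.0844), of the osmotic stress pathway, with SGT1, ULP2, DOA1 and the prolyl isomerase CPR1. The vacuolar ATPase gave VMA1, VMA2, VMA4 and VMA16, 4 of 22 candidates. For this enzyme the count was 7 as deposited, 0 after centring and 6 by SD relative to candidates of like signal. Lipid synthesis gave ACC1, FAS1 and FAS2 of fatty acids, the desaturase OLE1, INO1 of inositol, the inositol transporter ITR1, OPI3 of phosphatidylcholine, ERG20 of isoprenoids, SCT1 and the kinase PIK1.

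Other probe sets for 3 member genes played no part in the selection. The 6 further ones for ACT1 had SDs of 0.0406 to 0.0645, all under the limit. Those for WBP1 had 0.0701, 0.144 and 0.153, and those for RIP1 had 0.0903, 0.110 and 0.138, so 1 of 3 was under the limit for each gene. Probe sets of 1 gene share the same RNA and arrays. For comparison, the 9 spiked controls, added in fixed amounts, had SDs of 0.119 to 0.280 after quantile normalization and 0.0784 to 0.247 as deposited.

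Genes used by convention to normalize yeast expression data were mostly in the set under quantile normalization. They were mostly outside it with values as deposited, after centring and by SD relative to like signal. Of 17 on the array 16 were candidates and 11 were members: TEF2, PGK1, IPP1, ACT1, CDC19, TDH3, FBA1, ADH1, PDA1, HSP60 and TUB1. The flattest 200 held 1 gene of this list with values as deposited, 2 after centring and 3 by SD relative to like signal. Chosen on the 37 phenelzine arrays alone they held 11, and on the 11 control arrays alone 10. ALG9 (0.125), TAF10 (0.104), UBC6 (0.110), UBC4 (0.122) and TFC1 (0.177) were candidates outside the members, and TRS65 (0.206) was under the minimum mean. After centring on the column median the order turned: the SD was 0.566 for TEF2, 0.576 for ACT1 and 0.590 for TDH3, against 0.152 for ALG9, 0.149 for UBC6 and 0.189 for TAF10.

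Lists without any member numbered 14 of 48. The largest were ribosome biogenesis (112 candidates), the proteasome (45), tRNA modification (45), DNA replication (44) and spindle and kinetochore (39). Then came peroxisome (29), RNA polymerase subunits (29), the anaphase promoting complex (28), DNA repair (25) and autophagy (23). The smallest were the exocyst (16), cohesin and condensin (16), the nuclear exosome (15) and the RNA polymerase III factors (8). With members at 5.09% of candidates, the lack of a member in such small lists says little. The median SD was 0.146 for the exocyst and 0.178 for the RNA polymerase III factors, below the 0.204 of all candidates. It was 0.238 for cohesin and condensin and 0.2555 for the nuclear exosome. After centring, the flattest set held 5 exocyst candidates, 1 RNA polymerase III factor and none from the other small lists. The proteasome's 45 candidates had a median SD of 0.219, close to the 0.204 of all candidates.

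A small SD did not mean the absence of a cycle. A rhythm of 48 min after phenelzine passed the threshold for 146 members, while 87.8% of the 5372 probe sets tested passed it (limma F test, Benjamini-Hochberg adjusted p under 0.05). The same arrays entered the selection, so the count is a description only. Members passed less often than tested probe sets here, but more often with columns centred on their median. The members' amplitude, from the mean to the fitted peak, had a median of 0.058 and reached 0.124, against a median of 0.228 over all tested probe sets. The fitted rhythm took a median of 33% of a member's variance after phenelzine, against 60% for candidates. In the 40 min of the control 67 members passed a test of a 40 min rhythm, against 66.7% of probe sets, and 63 members passed both tests, as did 69.1% of candidates.

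ATP5, a subunit of the ATP synthase stalk, had the largest amplitude, 0.124, with a fitted peak 10.7 min into each 48 min and adjusted p = 3.8e-12 by limma. It read 13.26, 13.43 and 13.60 in phenelzine arrays, against 13.28, 13.47 and 13.54 in control arrays. GSP1, the Ran GTPase of nuclear transport, came next with 0.119 and a peak at 31.6 min (adjusted p = 1.6e-08). It read 12.83, 13.07 and 13.28 in phenelzine arrays, against 13.04, 13.08 and 13.21 in control arrays. The amplitude was 0.116 for EFB1, 0.115 for ATP4, 0.114 for ERG20 and INO1, 0.113 for HOM2 and RIP1, 0.110 for URA2, the first enzymes of pyrimidine synthesis, and 0.108 for CMD1. Of these 10, EFB1 peaked with GSP1 at 31.2 min, URA2 at 42.9 min, and the others between 2.4 and 15.6 min.

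**Figure D4:**
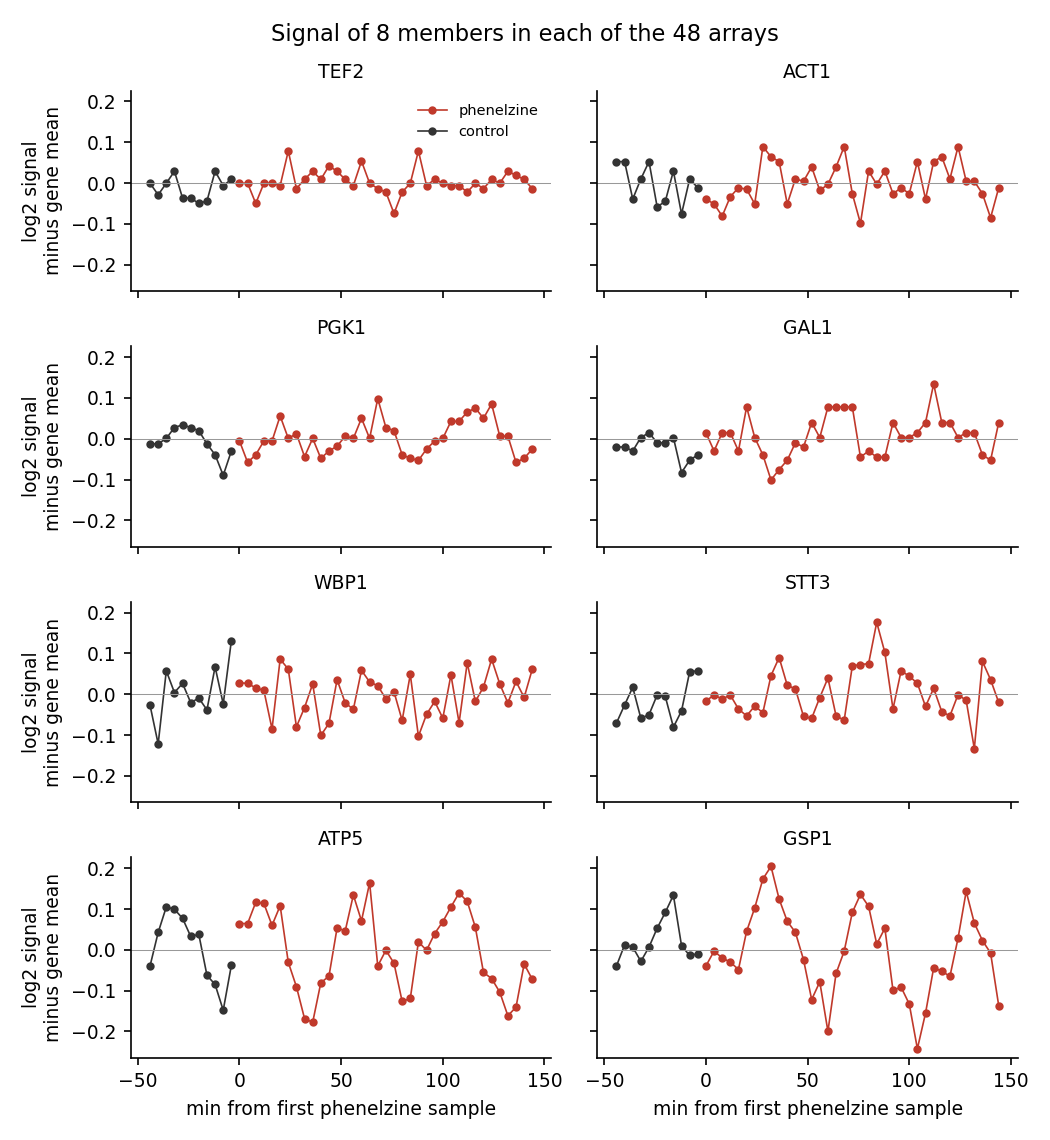
Log2 signal of 8 members minus each gene's own mean (y axis, quantile normalized) in every array against min from the first phenelzine sample (x axis); red is phenelzine and black is control. TEF2, ACT1, WBP1 and STT3 did not pass the test of a 48 min rhythm, while ATP5 and GSP1 rise and fall about every 48 min out of step with each other, within 0.25 of their means.

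The fitted peaks of the small waves are given by function as a description. Of the 146 members called rhythmic 73 (50%) peaked between 6 and 18 min, as did 39.4% of 3576 rhythmic candidates. Between 24 and 42 min there were 29 (19.9%), against 34.9% of candidates. Among respiratory chain and ATP synthase members 15 of 17 rhythmic ones peaked before 24 min, against 57.4% of rhythmic candidates. Among glycolysis, fermentation and pentose phosphate members 9 of 12 peaked between 12 and 24 min, against 21.1%. Lipid members peaked early, 8 of 9 in the first 12 min, against 36.2%. Of the translation members 11 of 14 peaked at 24 min or later, against 42.6%, EFB1 at 31.2 min and ASC1 at 39.7 min among them. The windows differ between groups and follow where each group's peaks lay, which widens the contrast with candidates. These differences between groups were not tested, and peak times under other scalings are not given.

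**Figure D5:**
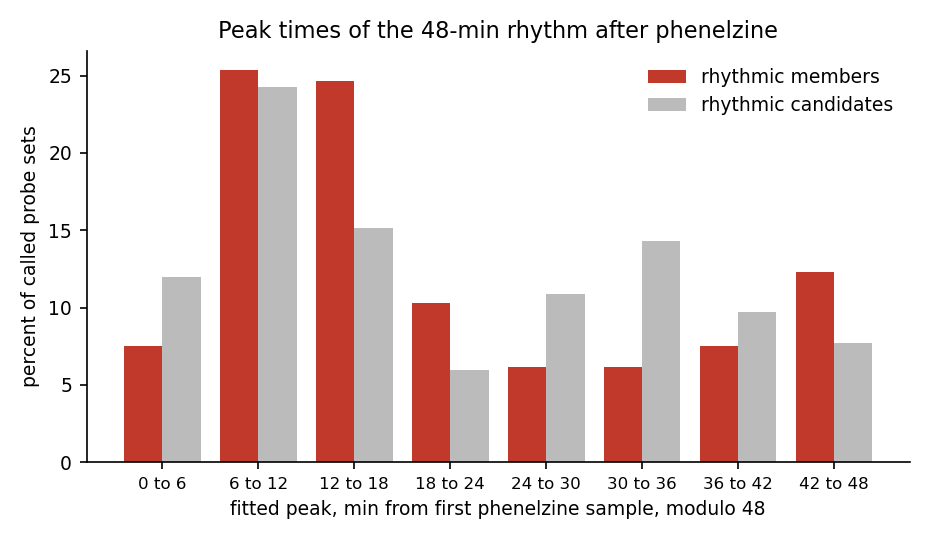
Percent of probe sets called rhythmic (y axis) by the time of the fitted peak within the 48 min period, in 6 min bins from the first phenelzine sample (x axis), for 146 members (red) and 3576 candidates (grey). Members are more often in the bins from 6 to 24 min and less often in those from 24 to 42 min; the difference was not tested.

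No member passed the test of a level difference between phenelzine and control arrays, while 0.465% of tested probe sets did (25 of 5372, limma, adjusted p under 0.05). Without adjustment 33 members had a p under 0.05. Differences, phenelzine minus control, ran from -0.10 for DOA1, a ubiquitin-binding protein, to 0.09 for UTH1, a cell wall and mitochondrial protein. DOA1 read 11.27, 11.45 and 11.70 in phenelzine arrays, against 11.43, 11.60 and 11.66 in control arrays (difference -0.10 ± 0.03, SE, adjusted p = 0.15 by limma). UTH1 read 13.35, 13.48 and 13.62 in phenelzine arrays, against 13.26, 13.41 and 13.50 in control arrays (0.09 ± 0.03, SE, adjusted p = 0.084 by limma). KRE1, RPP2A, NSI1 and CCT4 followed UTH1 at 0.08 to 0.07, and SHM1, RMD9, ESL2 and TRR1 followed DOA1 at -0.08 to -0.07. The control range lay within the phenelzine range for 133 members (66.5%) and 2910 of 3931 candidates, and no member or candidate had groups that did not overlap.

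With the sampling pairs 44 min apart as a replicate block, 5 members passed: CCT4 and CMD1 were higher with phenelzine, and PDB1, LAT1 and DUG1 lower, by 0.06 to 0.09 on the log2 scale. In that fit 8.49% of probe sets passed. With the 48 min rhythm in the model 12 members passed, CCT4 again among them, and 6.53% of all tested probe sets did.

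A slow drift over the 144 min after phenelzine passed the threshold for 66 members, 30 upward and 36 downward, while 39.8% of tested probe sets passed it. The steepest were MIC10, of the inner mitochondrial membrane, at 0.084 per h on the log2 scale, MPC3, a mitochondrial pyruvate carrier (0.073), YNL208W (0.072), HSP60 (0.070) and UTH1 (0.069). Downward, TIF2 fell by 0.090 per h, NUP49, a nucleoporin, by 0.088, ATP17 by 0.083, COP1 by 0.079 and TAL1 by 0.070. In the arrays before the skipped array number alone, 3 members passed (PYC1, GDH1 and OPI3), and 7.0% of all tested probe sets did.

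In all, 36 members (18%) passed none of the 4 tests, as did 3.31% of candidates. The selection used the same arrays, so this too is a description. The flattest of the 36 were TEF2, CCW12, TMA19, VHT1, IPP1, ACT1, VMA1, WBP1, STT3 and ARF1. Dimmer ones included the transcription factor SWI6, PIK1, PBS2 (a stress kinase), SPT7, GET1 and HSF1. A test not passed does not show a constant level: for TEF2 the level difference was 0.02 ± 0.01 (SE) on the log2 scale.

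The same selection was also made on each stretch of the experiment and measured in the other. Candidates chosen on the 37 phenelzine arrays alone had a median SD of 0.0714 in the 11 control arrays, against 0.177 for all candidates. Those chosen on the 11 control arrays had 0.0937 in the phenelzine arrays, against 0.210. The brightness of the probe sets is shared by both stretches, and its part in this was not tested.

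The profiles most like the members' mean profile, among the other probe sets, were those of DMA2 (Pearson r 0.91 over 48 arrays), NCP1 (0.90), FET3 (0.89), PIP2 (0.89) and WSC4 (0.89). The likeness is in shape alone, since WSC4 had an SD of 0.952 and the members' mean 0.0182. The members' coding length had a median of 1350 bases, against 1347 for candidates.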

How the data were processed

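Biotin-labelled RNA of 48 samples was hybridised to Affymetrix Yeast 2.0 arrays. The authors deposited linear signal intensities. The submitters' processing notes name GCOS without version, algorithm or scaling, so scale and centring are unknown. Column medians ran from 32.4 to 86.8.

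Intensities under 1 were set to 1, log2 transformed and quantile normalized over all probe sets. Tests used limma 3.58.1 in R 4.3.3 (trended eBayes) on 5372 probe sets brighter than the 90th percentile of 1747 fission yeast ones. Cosine and sine terms gave amplitude and peak.

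Named genes were the 20 flattest members, 5 each side of the limit, up to 5 of each list, the 10 largest amplitudes, the 5 largest differences and slopes each way, conventional normalization genes, 5 ribosomal and 10 most variable genes and 5 closest profiles. Members and lists were chosen with earlier results of these data known, and roles were assigned by hand after the members were seen. Further members named by function were chosen after their values were seen. Gene names were taken from GEO's platform annotation, updated through the R64 gene table. Alternatives changed scaling, offset, minimum mean, spread measure, arrays, rhythm period and blocking. Figures used matplotlib 3.10.9 in Python 3.11.15.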

Additional observations from a re-analysis of the deposited data

How the results depend on the processing

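Of the 200 members, the same selection kept 11% with columns centred on their median, 24.5% with values as deposited, 18% with columns scaled on the spiked controls and 59% with the 11 control arrays alone. It kept 51% by SD relative to candidates of like signal, an alternative chosen after seeing the data. The 8 other settings kept 76% to 100%. No member was kept in all 12 planned settings. By SD relative to like signal, glycolysis and the tricarboxylic acid cycle had 0 members each, the respiratory chain 1 and COPI and COPII transport 11. With values as deposited, 87 members had a 48 min rhythm (79.6% of tested probe sets), 12 a control rhythm (54.7%) and 167 a trend (42.4%). With columns centred on their median, 177 had a 48 min rhythm (79% of tested probe sets) and 111 a control rhythm (62.9%). In that setting the 48 min rhythm was thus more frequent among members than among tested probe sets, the reverse of the main setting. With the replicate block, which pairs samples 44 min apart by time and not by replicate number, 5 members differed in level, and with the 48 min terms 12 did. In the arrays before number 91, 3 had a trend. The cause of these moves was not tested. The 48 arrays of 1 culture limit the precision. The lowest SD of any candidate was 0.0294 at a mean of 13 to 14 and 0.0828 at 9 to 10.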
